A study of Homo sapiens with 3 samples.

Results

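Gene desert peaks are regions of DNA recovered with probes against the long noncoding RNA KCNQ1OT1 that lie far from any protein-coding gene. A peak was taken when its midpoint lay on chromosomes 1 to 22, in no protein-coding or lncRNA gene, and more than 100 kb from the nearest protein-coding gene. Stretches of 2 Mb or more with no gene of any kind were left out. Peaks beside centromeres, and between genes of acrocentric short arms such as that of chromosome 21, still passed. The rule used positions alone and found 472 peaks, out of 4454 on chromosomes 1 to 22 and 4889 in the whole list.

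The material was HEK293T, an established human embryonic kidney line that carries the SV40 large T antigen, and the labels name no treatment for any group. ChIRP (chromatin isolation by RNA purification) captures crosslinked chromatin with biotinylated oligonucleotides complementary to an RNA and sequences the attached DNA. There were 3 libraries, 1 in each group: odd-numbered probes, even-numbered probes, and input that received none. The authors deposited 1 merged peak list, in which every peak name carries the word Even. There is thus no replicate list and no read count, and depth is unknown. Peaks are sites and not replicates. Differences between classes of peaks were therefore not tested, and all intervals below cover counting error alone.

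KCNQ1OT1 runs antisense to KCNQ1, a gene for a potassium channel, and is known for silencing neighbouring genes on the paternal chromosome. Gene deserts are long stretches without protein-coding genes. Some hold distant enhancers of developmental genes, and many are late-replicating, AT-rich and associated with the nuclear lamina.

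RefSeq sequences (GRCh38.p14) were at hand for 2 places inside gene desert peaks and are shown because they are the member sequences that could be read here. The first is the mature miRNA of MIR3648-2, whose seed (bases 2 to 8) is in capitals, at chr21:8987026-8987046 on the plus strand, inside a peak of 396 bp with a fold of 6.67. Copies of miR-3648 are known from the ribosomal RNA transcription unit. The second is the promoter window of the lncRNA gene FAM230B, from 250 bases before to 50 after its start, at chr22:21167615-21167914 on the plus strand, and no part of it is capitalised.
hsa-miR-3648: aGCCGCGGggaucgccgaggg
FAM230B promoter: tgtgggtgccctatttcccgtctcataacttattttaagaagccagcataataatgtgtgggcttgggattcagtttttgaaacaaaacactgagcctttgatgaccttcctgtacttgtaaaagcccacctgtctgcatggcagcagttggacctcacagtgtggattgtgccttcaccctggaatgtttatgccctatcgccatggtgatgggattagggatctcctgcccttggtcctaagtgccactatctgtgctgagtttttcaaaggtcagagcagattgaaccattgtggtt

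The FAM230B window lay wholly inside a peak of 1599 bp with a fold of 3.69, which is 103 kb from the protein-coding gene LRRC74B. Of its bases 46.3% were G or C, against a median of 58.7% over 35116 promoter windows of the same length. Its longest unbroken run of purines or of pyrimidines was 7 bases, against a median of 11. Of the promoter windows, 98.9% held a run at least as long.

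The 472 peaks made up 10.6% of the peaks on chromosomes 1 to 22 (Wilson 95% interval 9.73 to 11.5). Their fold enrichment, the authors' ratio of signal at the summit over background, had a median of 12.2 (95% interval from ranks 10.3 to 13.3) and ran from 1.80 to 118. The width had a median of 627 bp with quartiles at 519 and 1323 bp. Of the members, 163 had a fold of at least 20, which is 34.5% (Wilson 95% interval 30.4 to 38.9). The background was 26.1% over all peaks of chromosomes 1 to 22 and 36.0% over those outside the gene-free stretches, so the share in deserts lay near that of the other peaks of the arms. A fold of at least 50 was seen in 39 members, 8.26%, against 6.02% over all peaks of these chromosomes and 8.70% outside the gene-free stretches, again near the other peaks of the arms.

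The territory that passes the rule base by base measured 536 Mb. It held 0.881 peaks per Mb (95% Poisson interval 0.803 to 0.964), against 1.18 (1.13 to 1.23) in the other 2162 Mb of the arms, a ratio of 0.746. By class, the density was 1.39 per Mb in intergenic DNA within 100 kb of a protein-coding gene, 1.16 in protein-coding genes and 0.896 in DNA covered by lncRNA genes alone. Deserts and lncRNA genes thus had overlapping intervals and lay below the 2 other classes. Assembly gaps were not removed from these lengths, and the copy number of HEK293T chromosomes was not analysed here.

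Most members lay well away from gene-free stretches, but not all did. Of the 472 peaks, 341 (72.2%) lay over 5 Mb from a gene-free stretch and 131 lay closer, 70 of them within 1 Mb. Of those 70, 40 were on chromosome 3. The peaks close to a gene-free stretch differed in level from the others. Their median fold was 6.53 (95% interval 5.96 to 7.85) and their median width 1230 bp, against a fold of 15.6 (12.9 to 19.3) and a width of 581 bp farther away. A fold of 20 or more was found in 13.0% of the 131 (8.26 to 19.8) and in 42.8% of the 341 (37.7 to 48.1). In the rest of the arms that share was also lower near gene-free stretches. It was 21.8% (16.5 to 28.1) within 5 Mb and 37.5% (35.6 to 39.5) farther away. The density of desert peaks was 2.24 per Mb within 5 Mb and 0.715 farther away, a ratio of 3.13. Of the 131, 37 belonged to a single run on chromosome 3 and 56 to runs of 3 or more. Without those 56 the median fold near gene-free stretches was 8.78 (95% interval 7.41 to 12.8), the median width 1012 bp, the share at a fold of 20 or more 22.7% and the density 1.28 per Mb.

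**Figure D1:**
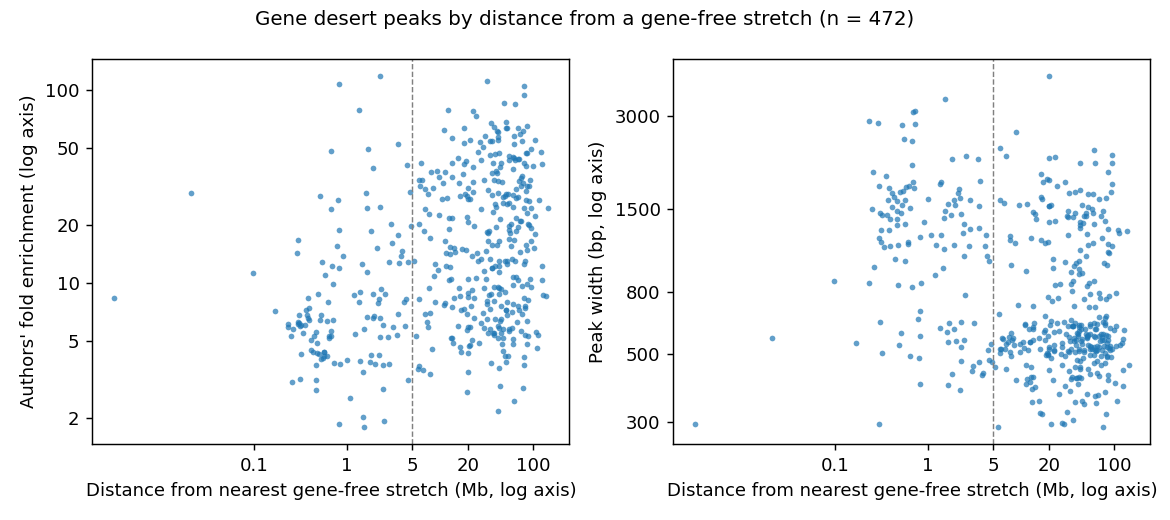
Each point is 1 of the 472 gene desert peaks, plotted by the distance of its midpoint from the nearest gene-free stretch of 2 Mb or more (Mb, log axis) against the authors' fold (left, log axis) and the width in bp (right, log axis). The dashed line marks 5 Mb; peaks left of it had a median fold of 6.53 and a median width of 1230 bp, those right of it 15.6 and 581 bp.

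Low folds were found near the gene-free stretches, and the level was similar along the rest of the arm. The median fold was 6.11 within 1 Mb (n = 70), 6.74 from 1 to 2 Mb (n = 25) and 8.25 from 2 to 5 Mb (n = 36). It was 12.9 from 5 to 10 Mb (n = 33), 14.8 from 10 to 20 Mb (n = 57) and 16.5 beyond (n = 251). The intervals of the last 3 classes overlapped. A second peak lay within 10 kb for 30 of the 70 members within 1 Mb, and for 10 of the 341 over 5 Mb away. Within 5 Mb it did so for 35 of the 131, and for 9 of the 94 left without the run on chromosome 3. The share was 18.2% over all peaks of chromosomes 1 to 22, 5.72% in the rest of the arms and 43.4% in gene-free stretches.

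Lower median folds near gene-free stretches were also found in peaks inside protein-coding genes, but not in intergenic peaks within 100 kb of such a gene. In the rest of the arms, with its classes pooled, the median fold was 8.48 within 5 Mb and 12.1 farther away. Peaks inside protein-coding genes had 6.72 within 1 Mb (n = 8), 7.52 from 1 to 2 Mb (n = 14), 10.3 from 2 to 5 Mb (n = 59) and 14.2 over 20 Mb away (n = 1013). In the intergenic peaks within 100 kb of a protein-coding gene, the median fold was 10.7 within 1 Mb of a gene-free stretch (n = 15). It lay between 7.62 and 9.44 in the classes from 1 to 20 Mb and was 9.53 over 20 Mb away (n = 551). A fold of 20 was reached by 6.67% of these intergenic peaks within 1 Mb and 29.4% from 1 to 2 Mb. From 2 to 5 Mb it was reached by 17.6%, and over 20 Mb away by 32.8%. Their median width was 1802 bp within 1 Mb and 635 bp over 20 Mb away. Beyond 5 Mb their median fold was 9.14 (95% interval 8.36 to 9.90), below that of desert peaks at the same distance, and the 2 intervals did not overlap. Peaks inside protein-coding genes had 13.6 (12.1 to 14.9) there, and peaks inside lncRNA genes alone 17.7 (13.7 to 19.9), both with intervals that overlapped the one for deserts. The density in deserts beyond 5 Mb was 0.611 of that in the other DNA of the arms at the same distance. Within 5 Mb it was 1.67 times that of the other DNA (95% interval 1.33 to 2.10). That value rested on runs of peaks: it was 1.20 without the run on chromosome 3, 0.957 without the 56 members in runs, and 1.11 (0.831 to 1.46) when runs were left out of the other DNA as well.

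**Figure D2:**
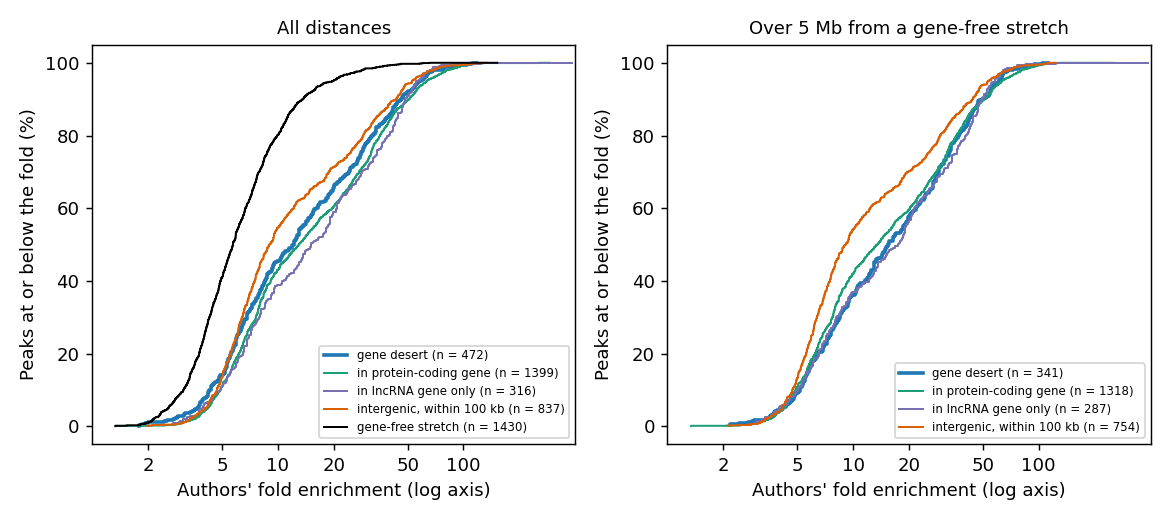
Each line gives the percent of peaks of a class at or below a fold (authors' fold enrichment, log axis), for all distances (left) and for peaks over 5 Mb from a gene-free stretch (right), with the number of peaks in the key. Gene desert peaks (thick line, median 12.2 on the left and 15.6 on the right) run with the peaks in lncRNA and protein-coding genes on the right, while intergenic peaks within 100 kb of a gene (median 9.14) lie at lower folds.

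Width and fold divided the desert peaks into narrow peaks with a wide range of folds and broad peaks with low folds. The limit of 800 bp was chosen after the values were seen. The 274 peaks up to 800 bp (58.1% of members) had a median fold of 23.5 with quartiles at 10.9 and 37.6. The 198 broader peaks had a median fold of 6.77 with quartiles at 5.07 and 9.57. Of the 163 peaks with a fold of 20 or more, 152 (93.3%) were at most 800 bp wide, with a median width of 559 bp.

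Among peaks up to 700 bp the fold was higher in each wider class. The median fold was 8.37 up to 400 bp (n = 33), 16.7 from there to 500 bp (n = 62), 29.6 to 600 bp (n = 116) and 43.9 to 700 bp (n = 47). It was 10.9 up to 800 bp (n = 16) and between 6.32 and 7.94 in all wider classes. Fold and width of a peak come from the same signal, so these values describe the shape of the peaks and no more.

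The other peaks of the arms had nearly the same 2 shapes. Of them, 63.0% were at most 800 bp wide, with a median fold of 22.5, and the broader ones had a median fold of 7.23. Peaks in gene-free stretches did not: 17.6% were at most 800 bp wide and these had a median fold of 4.25. Of the desert peaks within 5 Mb of such a stretch, 29.0% were narrow, against 69.2% of those farther away. The 38 narrow peaks near a gene-free stretch had a median fold of 16.3, above that of narrow peaks inside the stretches, and the 93 broad ones had 5.96.

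**Figure D3:**
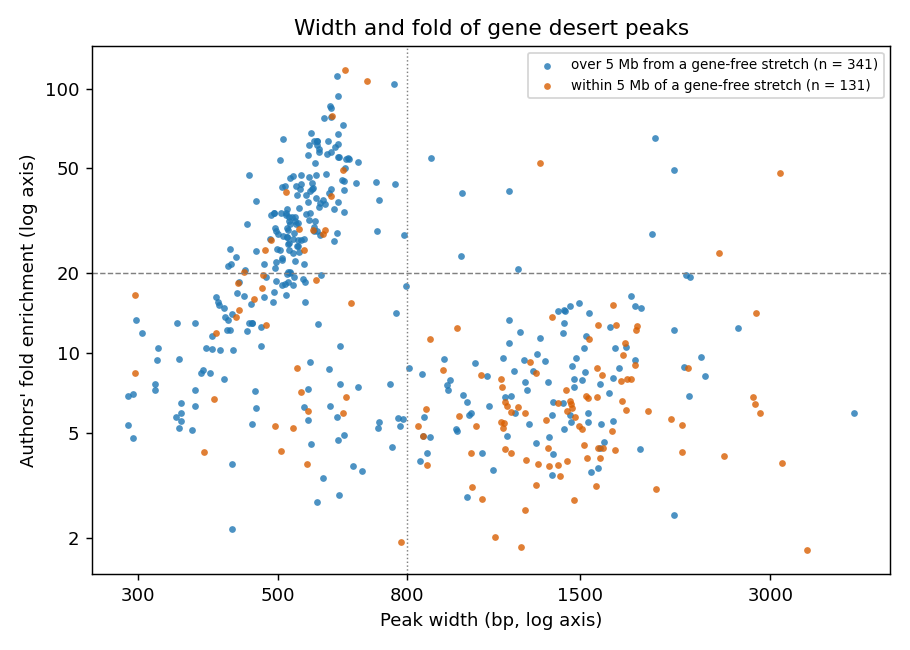
Each point is 1 gene desert peak, by width (bp, log axis) and the authors' fold (log axis), in blue for peaks over 5 Mb from a gene-free stretch and in orange for those within 5 Mb. The dotted line marks 800 bp and the dashed line a fold of 20; 152 of the 163 peaks above the dashed line lie left of the dotted line.

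A part of the folds lay on a common step, and most did not. Many peaks shared a fold to 5 decimals, and 22 of the 28 values held by at least 8 peaks of chromosomes 1 to 22 were whole multiples of 0.381, a step fitted to these same values. Of the desert peaks, 130 (27.5%, Wilson 95% interval 23.7 to 31.7) had a fold within 0.0005 of a whole multiple. Such multiples take up 0.263% of the scale, which is no chance level here, because the step was fitted to folds that these peaks share. The share was 33.1% (28.4 to 38.3) over 5 Mb from a gene-free stretch and 13.0% (8.26 to 19.8) within 5 Mb. It was highest in narrow peaks over 5 Mb away, at 43.2% (37.1 to 49.6), against 10.5% of the broad ones there. In gene-free stretches it was 1.12% and in the rest of the arms 21.9%.

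The multiples ran from 11 to 293 with a median of 66 in desert peaks. MACS2, which the submitters' processing notes name, divides the pileup at the summit by a background level after adding a constant to both, so peaks with the same background can share a step. Which background each peak was set against was not tested. Desert peaks on the common step had a median fold of 25.1 and the others 8.61.

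The 10 desert peaks with the highest fold were narrow, between 590 and 761 bp wide, and they lay 140 to 1074 kb from a protein-coding gene. Of these, 7 were over 5 Mb from a gene-free stretch. The highest, at chr3:96130238-96130875, had a fold of 118, with a −log10 p of 617. It ranked 10 among all peaks of chromosomes 1 to 22. Its nearest protein-coding gene, 684 kb away, was EPHA6, which encodes an ephrin receptor, and no lncRNA gene lay within 680 kb.

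A peak at chr7:25846127-25846745 had a fold of 112 and lay 306 kb from NFE2L3, a bZIP transcription factor gene. The peak at chr14:19175410-19176101 had a fold of 107 and the highest −log10 p of all members, 840. It lay 172 kb from POTEM, a member of the POTE ankyrin gene family, and 0.833 Mb from a gene-free stretch. These and a peak on chromosome 6 were the 4 members with a fold of 100 or more, out of 24 such peaks on chromosomes 1 to 22.

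Chromosome 6 held 3 of the top 10. The peak at chr6:141483123-141483883 had a fold of 104, 203 kb from LOC124901415. The peak at chr6:139970806-139971427 had 93.9 and lay 596 kb from CITED2, a transcriptional co-regulator gene. The third, at chr6:9413525-9414128, had 85.7 and lay 978 kb from SLC35B3, which encodes a Golgi transporter of the sulfate donor PAPS. On chromosome 3, besides the peak near EPHA6, there were peaks nearest to CMC1 (fold 84.5), which acts in cytochrome c oxidase assembly, the mitochondrial RNA methyltransferase gene NSUN3 (78.8) and the ubiquitin ligase gene CBLB (78.2).

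The tenth peak, at chr10:16071394-16071983, had a fold of 77.3. It covered the ferritin light chain pseudogene FTLP19 and lay 211 kb from the deubiquitinase gene MINDY3. Ranked by −log10 p, 8 of the 10 were the same. Those that entered were a peak of 2111 bp nearest to TSNARE1 (−log10 p 640, fold 49.4) and a peak of 1475 bp at chr16:34586424-34587898 (780, fold 5.74).

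Most deserts with a peak had a single one. A desert was counted as the span between 2 neighbouring protein-coding genes with territory under the rule. Such a span can cross lncRNA genes or a gene-free stretch, which do not count as territory. There were 1420 deserts, with a median territory of 169 kb. Members were found in 305, of which 226 held 1, 51 held 2 and 28 held 3 or more. Of the 142 deserts with at least 1 Mb of territory, 85 held a peak and 57 held none. The largest empty ones lay between AGA and TENM3 on chromosome 4 (2.98 Mb of territory), CTNNA2 and SUCLG1 on chromosome 2 (2.88 Mb), and OTOL1 and SI on chromosome 3 (2.45 Mb).

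The members of the fullest deserts lay within 5 Mb of a gene-free stretch, which a desert can cross. The span between LOC124903767 and SHCBP1 measured 12.2 Mb, with 1.46 Mb of territory. The span between EPHA3 and PROS1 on chromosome 3 held 38 peaks in 1.93 Mb of territory. The spans between LOC102723475 and LOC101927345 on chromosome 21 and between ZNF337 and LOC124904970 on chromosome 20 held 8 each. The span between LOC124903767 and SHCBP1 on chromosome 16 held 7, and that between POTEH and CCT8L2 on chromosome 22 held 4, in a territory of 0.669 Mb; other deserts held 4 as well. Median folds in these 5 deserts ran from 3.95 to 7.40.

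Deserts with 4 members over 5 Mb from a gene-free stretch combined high and low folds, and so did some of those nearer. Between TOX, a gene for an HMG-box factor of T cell development, and CA8 on chromosome 8, the folds of the 4 peaks were 10.5, 56.3, 7.46 and 21.7 in order of position. Between EDEM1, which acts in disposal of misfolded proteins, and the glutamate receptor gene GRM7 on chromosome 3, the lowest fold was 4.84 and the highest 65.2. Between HS3ST5 and the tyrosine kinase gene FRK on chromosome 6 the lowest was 4.19 and the highest 43.0. Between GBE1 and CADM2 on chromosome 3 they were 4.54 and 31.1. Nearer to a gene-free stretch, the folds ran from 11.9 to 118 between NSUN3 and EPHA6 on chromosome 3. They ran from 5.34 to 52.4 between SPATA31A1 and FOXD4L6 on chromosome 9, and from 8.37 to 13.7 between PRIM2 and KHDRBS2 on chromosome 6.

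Runs of 3 or more members with successive midpoints within 100 kb numbered 8 and held 62 peaks. The largest held 37 peaks on chromosome 3, from 90780154 to 91282826, over 503 kb. Its folds ran from 2.79 to 12.7 with a median of 5.31, its widths from 494 to 3131 bp with a median of 1467 bp, and none of its peaks reached a fold of 20. The run ended 231 kb from a gene-free stretch and lay 1.30 to 1.80 Mb from EPHA3. It lies in the region of the chromosome 3 centromere, where satellite DNA is known to occur, and its levels were near those of peaks in gene-free stretches (median fold 5.73, width 1472 bp).

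**Figure D4:**
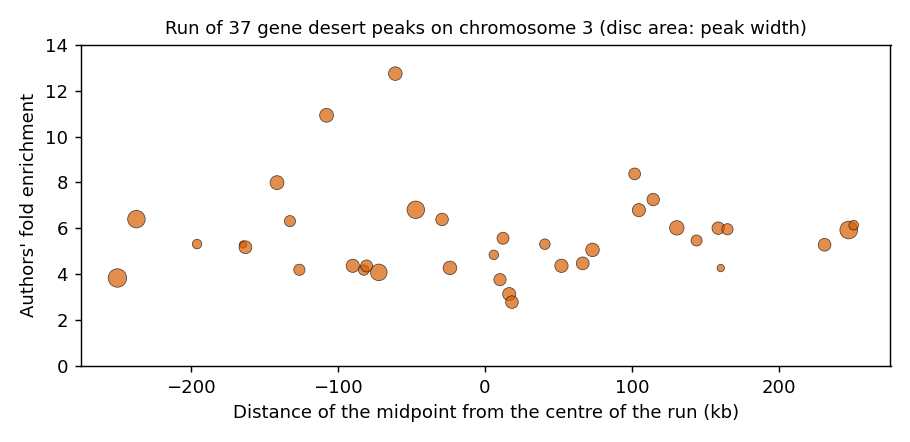
Each disc is 1 of the 37 peaks of the run on chromosome 3, by the distance of its midpoint from the centre of the run (kb) and the authors' fold; the area of a disc is proportional to the peak width. Folds lie between 2.79 and 12.7, and no peak of the run reaches a fold of 20.

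The run on chromosome 16, of 7 peaks over 155 kb from 34572252, had folds from 1.80 to 12.5. Its lowest fold belonged to a peak of 3431 bp whose −log10 p was 130. In the same run a peak with a fold of 5.74 had a −log10 p of 780. On the short arm of chromosome 21 there were 2 runs of 3. The first of these peaks, at chr21:8208424-8208980 with a fold of 6.03, lay in RNA45SN2, a gene for the ribosomal RNA precursor. Runs of 3 on chromosomes 17 and 20 had median folds of 6.18 and 6.80.

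The other 2 runs, both on chromosome 8, lay over 5 Mb from a gene-free stretch. In the run near CA8 the 3 folds were 56.3, 7.46 and 21.7. In the run between ABRA and the angiopoietin gene ANGPT1 they were 7.80, 10.7 and 9.69.

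By chromosome, the density of desert peaks was highest on chromosomes 22 (1.90 per Mb of desert, n = 11), 3 (1.85, n = 74), 17 (1.68, n = 13) and 21 (1.50, n = 18). It was lowest on chromosome 13 (0.423, n = 13) apart from chromosome 19, which had 0 members in 2.14 Mb (95% Poisson upper limit 1.72 per Mb). Over 5 Mb from a gene-free stretch, chromosome 3 had 31 members and 0.897 per Mb, with an interval of 0.609 to 1.27 that overlapped those of most chromosomes. Chromosome 17 (1.41, interval 0.646 to 2.68) and chromosome 22 (1.42, interval 0.386 to 3.63) had the highest values there, from 9 and 4 peaks.

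**Figure D5:**
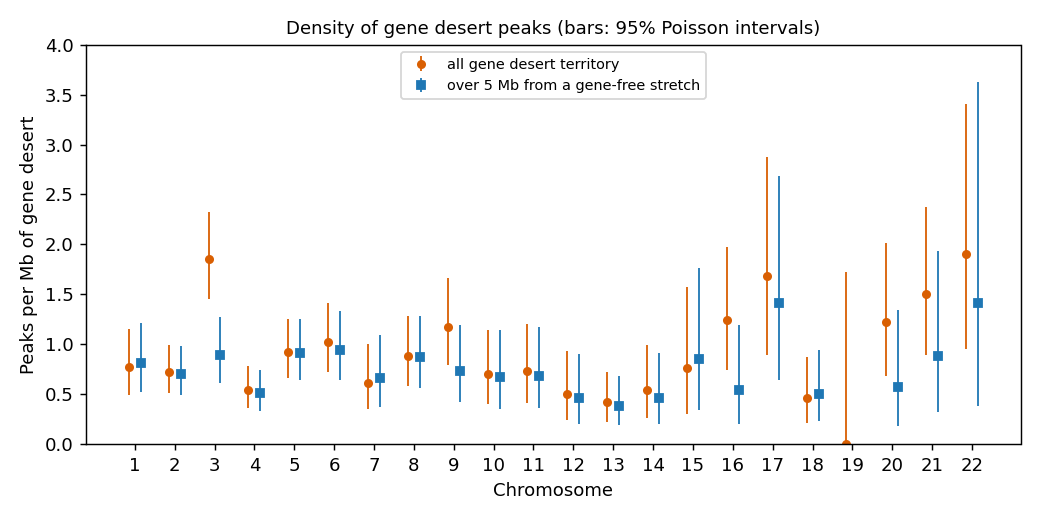
Points give gene desert peaks per Mb of gene desert on each chromosome, for all territory (orange circles) and for territory over 5 Mb from a gene-free stretch (blue squares, left out for chromosome 19, where under 1 Mb remains), with bars for 95% Poisson intervals. Chromosome 3 stands at 1.85 per Mb over all territory and at 0.897 away from gene-free stretches.

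Depth within the desert was followed by the distance from the nearest protein-coding gene, which had a median of 325 kb and reached 3.19 Mb. Over 5 Mb from a gene-free stretch the density was 0.776 per Mb at 100 to 250 kb (n = 141), 0.726 at 250 to 500 kb (n = 99), 0.665 at 500 to 1000 kb (n = 76) and 0.555 beyond 1000 kb (n = 25). Each interval overlapped the next, and those of the nearest (0.653 to 0.915) and the farthest class (0.359 to 0.820) overlapped too. The median fold stayed between 14.4 and 15.6 in these 4 classes. With all members, the density beyond 1000 kb was 1.37 per Mb and the median fold 6.40 (n = 70), a class that holds the 37 peaks of the run on chromosome 3.

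The peak farthest from a protein-coding gene, at chr22:12341774-12342913, had a fold of 4.35 and lay 3186 kb from OR11H1 and 0.473 Mb from a gene-free stretch. The next, at chr4:33844632-33844982, had a fold of 5.94 and lay 2161 kb from ARAP2. The widest member, of 4069 bp, lay 115 kb from PREX1 on chromosome 20 with a fold of 5.92.

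At the limit of 100 kb, the 3 peaks just inside the rule had folds of 6.85 (101 kb from FBXO4), 3.12 (FOXD4L5) and 15.2 (101 kb from the chemokine gene CXCL12). The 3 just outside it had folds of 6.47 (99.3 kb from ETV1), 26.3 (98.8 kb from the chemokine receptor gene CXCR4) and 54.2 (98.8 kb from ATG4C).

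The nearest protein-coding genes of the members were set against those of 10 gene families, with a density per Mb of desert nearest to each family. Over all genes that border a desert the density was 0.884 per Mb, from the 469 members that lie between 2 such genes, and 347 of 2444 (14.2%) were nearest to a member. Cadherins and protocadherins, which mediate cell adhesion, were nearest to a member in 7 of 22 and had 11 peaks, 0.498 per Mb (interval 0.249 to 0.891). All 11 lay over 5 Mb from a gene-free stretch, and 6 reached a fold of 20, against 42.8% of all members at that distance. Among the 11 were peaks nearest to PCDH18 (fold 47.2), CDH9 (41.1), CDH10 (27.1) and PCDH10 (24.5). Their many peaks thus went with long deserts of 22.1 Mb in all and not with a higher density.

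Neuronal adhesion genes were nearest in 9 of 25, with 10 peaks and 0.644 per Mb. Their median fold was 18.4, and 5 of the 10 reached a fold of 20, against 34.5% of all members. The highest folds were near CNTNAP4 (57.5), LRRTM4 (44.1), LRRC4C (37.7) and SLITRK5 (33.6), which encode proteins of the neuronal cell surface. The lowest were near CNTN5 (2.91) and CNTNAP3C (3.78). Axon guidance genes were nearest in 9 of 24, and their 47 peaks gave 3.61 per Mb (interval 2.65 to 4.80). Of these peaks, 38 belonged to EPHA3 and lay beside the chromosome 3 centromere, and the other 9 had a median fold of 35.1. Without EPHA3 the density of the family was 0.827 per Mb (interval 0.378 to 1.57). Besides EPHA6, those near the netrin receptor gene UNC5B (50.2) and the ephrin receptor genes EPHA5 (41.9) and EPHA4 (41.1) had the highest folds.

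Developmental transcription factor genes were nearest in 14 of 90, with 16 peaks, 0.704 per Mb (interval 0.402 to 1.14) and a median fold of 20.2. The peak near ZEB2, a repressor of epithelial genes, had a fold of 68.1, and those near IRX1 (60.3), NR2F1 (55.2) and NR2F2 (35.7) followed. Ion channel genes were nearest in 10 of 54, with 14 peaks, 1.08 per Mb and a median fold of 15.4. Their highest folds were near the potassium channel gene KCNT2 (63.7), the kainate receptor gene GRIK2 (47.2), KCNJ2 (39.8) and KCNU1 (24.1). With EPHA3 left out of the axon guidance genes, the interval of each family with a peak included the density over all genes. For cadherins that density, 0.884 per Mb with EPHA3 kept, lay at the upper end. Without EPHA3 the density over all genes was 0.816 per Mb (interval 0.741 to 0.897), which each family interval also included.

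Zinc finger genes were nearest in 5 of 52, with 5 peaks, the highest near ZNF706 (fold 28.8) and ZNF267 (7.99). Olfactory receptor genes were nearest in 2 of 16 in their own territory, and 3 peaks were assigned to OR4A47 (49.1), OR2K2 (8.93) and OR11H1. Immune and blood genes, as markers of other cell types, had 2 peaks, nearest to IL7 (16.5) and IL20RB (3.62). The 2 histone genes that border a desert had none. No imprinted gene of the 11p15.5 list borders desert territory, and the member nearest to KCNQ1OT1 on chromosome 11 lay 8.40 Mb from it.

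Genes of other kinds held a share of the members near their share of the territory. Of the 472 members, 13 (2.75%, interval 1.62 to 4.65) had their midpoint in a gene of another biotype, and such genes cover 2.68% of the territory. Pseudogenes held 8 of them, and the share of the territory in pseudogenes alone was not worked out. After FTLP19, the highest folds were in LOC101930420 (29.3), NBEAP5 (26.7), LOC124905414 (20.9) and GGT2P (20.1). A lncRNA gene lay within 10 kb of 55 members and beyond 100 kb of 190, with a median distance of 67.5 kb. The share of the territory at these distances from a lncRNA gene was not worked out. In the outer 5 Mb of the chromosomes 14 members were found, whose fold had a median of 27.2 (95% interval 8.54 to 45.2). A fold of 20 was reached by 8 of them, and the Wilson 95% interval of 32.6 to 78.6% includes the 34.5% of all members. The share over all peaks of the outer 5 Mb was not worked out.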

How the data were processed

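ChIRP-seq DNA from the odd pulldown, the even pulldown and the input of HEK293T cells was analysed through 1 merged peak list. The submitters' processing notes name Bowtie2, MACS2 and GRCh38. Their versions and settings, the control and the way of merging were not given in the sources used here. The fields used, as the authors deposited them, were a fold (a linear ratio), the −log10 of the p-value, a score and a summit position per peak. All are the authors' values, used only within the list. The list holds no counts, so depth is unknown.

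Peaks were placed against RefSeq genes of GRCh38.p14 (56080 genes on chromosomes 1 to 22), with Python 3.11.15, numpy 2.4.6, pandas 2.3.3 and scipy 1.17.1. Left out were 676 table entries that start again at low positions after the end of a chromosome's list, as genes on other scaffolds do. A stretch of 2 Mb or more before the first gene counted as gene-free. Shares have Wilson 95% intervals, densities Poisson 95% intervals, and medians 95% intervals from binomial ranks. The placement was checked on positions of known class. Named peaks follow a fixed rule: the 10 highest by fold and by −log10 p, the 5 farthest, the 5 widest, 3 on each side of the limit, runs, the 5 fullest deserts and up to 4 genes a family. The members, the families and the lists were chosen with earlier results of these data known. The split at 800 bp, the multiples of the fold, the empty deserts and the deserts away from gene-free stretches were chosen after their values were seen. No genome sequence was used.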

Additional observations from a re-analysis of the deposited data

Results flagged for a closer look

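The rule was limited to chromosomes 1 to 22. Applied to the X chromosome, which no comparison above used, it found 44 gene desert peaks among 269. They are listed because they lie outside the chromosomes compared. Their density was 1.04 per Mb of desert (95% Poisson interval 0.759 to 1.40), their median fold 16.2 (95% interval 10.3 to 29.9) and their median width 598.5 bp. Of the 44, 20 had a fold of at least 20 (Wilson 95% interval 31.7 to 59.9%), and none had another peak within 10 kb. The share at that fold over all 269 peaks of the X chromosome was not worked out.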

How the results depend on the processing

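Over 20 alternative settings, 111 values were compared with the main ones; 63 stayed within the main interval (or, for counts, within 1.5 times), 46 moved and 2 reversed. The density ratio reversed to 2.06 with gene-free stretches of 5 Mb in place of 2 Mb, which lets shorter centromeric stretches count as deserts. In that setting there were 1424 members (32.0% of the peaks) at 2.43 per Mb, with a median fold of 7.09, 15.2% at a fold of 20, a median width of 1241 bp and 31.2% with a neighbouring peak. Without 5 Mb beside each gene-free stretch the share was 7.66%, the density 0.715 per Mb, the ratio 0.611, the median fold 15.6, the share at a fold of 20 42.8%, the width 581 bp and the share with a neighbour 2.93%. Without runs, a setting chosen after seeing the data, these were 9.34% of the peaks, a fold of 14.3, 39.3%, 601.5 bp and 2.20%; the run of 37 on chromosome 3 holds most of them. The density ratio within 5 Mb of a gene-free stretch, 1.67, was 1.20 without that run, reversed to 0.957 without all runs of members and was 1.11 without runs in both (settings also chosen after seeing the data). Among peaks at or above the median −log10 p there were 285 members (12.8%; 0.532 per Mb) with a fold of 24.3, 57.2% at 20, a width of 574 bp and 3.16% with a neighbour; at or above the median fold there were 286 (12.8%; 0.534 per Mb) with 24.2, 57.0%, 565 bp and 2.10%. The cut on fold raises the median fold and the share at a fold of 20 by construction, and the cut on −log10 p also kept peaks of higher fold. The share at a fold of 20 over all peaks kept by these cuts was not worked out. A limit of 50 kb gave a share of 13.8%. A limit of 250 kb gave 288 members (6.47%), and one of 500 kb 162 (3.64%), with a fold of 8.57 and 20.4% with a neighbour. A neighbour was found for 5.93% within 5 kb and 26.3% within 100 kb, and a fold of 10 was reached by 54.7% and of 50 by 8.26%. Lengths of assembled bases were not run, as no genome was used. No paired analysis was possible because each group has 1 library. Leaving out replicates could not be done. Depth is unknown, so no limit from it can be given.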
